A study of Homo sapiens with 4 samples.

Results

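INSM1 and the REST corepressor network were followed in SH-SY5Y cells after silencing of TSPAN8. The 9 genes were INSM1, INSM2, GFI1, NEUROD1, REST, RCOR1, RCOR2, RCOR3 and KDM1A, taken by name from the platform annotation with every probe set that the annotation gives to 1 of them alone. Of the 9 genes, 8 had a value, in 14 of the 54613 probe sets tested and among 19775 named genes. NEUROD1 had no probe set under its name in that annotation and its expression was not analysed here. The set was selected on names and on an earlier measured value of these arrays, the log2 difference of INSM1 at its main probe set, which was below control. The differences between knockdown and control are therefore given for the members as a description.

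SH-SY5Y is an established human neuroblastoma line of sympathetic neuroblast character. The TSPAN8 knockdown group (2 arrays) came from cells given small interfering RNA with a self-delivering (Accell) system, and the transfection control group (2 arrays) from cells held under control conditions. All cells were collected after 72 h, and 100 ng of total RNA per sample was amplified and biotin-labelled. The sources used here do not say what the control cells received, nor that the samples of a group were separate cultures, so p-values measure a spread that may be technical.

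The members meet on one repressor machine. REST is a zinc finger repressor that binds RE1 elements (repressor element 1) beside neuronal genes and silences them in non-neuronal cells, and its loss during neuronal differentiation releases them. It recruits CoREST proteins, encoded by RCOR1, RCOR2 and RCOR3, which carry the histone demethylase KDM1A (LSD1) and histone deacetylases. INSM1, INSM2 and GFI1 are zinc finger repressors with a SNAG domain, a short N-terminal stretch that docks on KDM1A. INSM1 marks neuroendocrine cells and sympathetic progenitors, and NEUROD1 is a bHLH activator of neuroendocrine fate that INSM1 is known to repress.

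Promoter windows were taken from RefSeq (GRCh38.p14), from 250 bases before to 50 bases after an annotated start site. They covered 7 of the 9 genes in 11 windows. INSM1 and RCOR2 had none. The windows of REST, RCOR1 and RCOR3 are shown because they hold core letters of one side of an RE1 element, and that of INSM2 because it alone held a TATA box; capitals mark these letters. They are GGACAGC in REST and its reverse complement in RCOR1, CAGCACC in RCOR3, and in INSM2 the TATAAA and the E-box CATCTG.
REST, chr4:56908660-56908959, plus strand: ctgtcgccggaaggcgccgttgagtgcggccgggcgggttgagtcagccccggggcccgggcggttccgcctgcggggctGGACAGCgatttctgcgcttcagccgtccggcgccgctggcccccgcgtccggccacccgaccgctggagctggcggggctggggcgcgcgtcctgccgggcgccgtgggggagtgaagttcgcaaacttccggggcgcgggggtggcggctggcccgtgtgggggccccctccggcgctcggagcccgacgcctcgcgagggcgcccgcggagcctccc
RCOR1, chr14:102592399-102592698, plus strand: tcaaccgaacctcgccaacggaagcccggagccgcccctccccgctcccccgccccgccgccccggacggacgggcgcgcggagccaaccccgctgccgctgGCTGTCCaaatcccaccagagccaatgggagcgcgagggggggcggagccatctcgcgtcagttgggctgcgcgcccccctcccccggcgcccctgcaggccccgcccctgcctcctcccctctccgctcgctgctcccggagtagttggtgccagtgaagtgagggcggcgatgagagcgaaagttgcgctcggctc
RCOR3, chr1:211259697-211259996, plus strand: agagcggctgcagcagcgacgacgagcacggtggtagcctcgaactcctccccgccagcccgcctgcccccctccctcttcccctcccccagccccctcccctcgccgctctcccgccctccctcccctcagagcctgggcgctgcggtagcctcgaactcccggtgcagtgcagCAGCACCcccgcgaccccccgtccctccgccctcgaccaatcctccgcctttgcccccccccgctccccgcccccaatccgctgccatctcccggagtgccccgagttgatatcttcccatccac
INSM2, chr14:35533914-35534213, plus strand: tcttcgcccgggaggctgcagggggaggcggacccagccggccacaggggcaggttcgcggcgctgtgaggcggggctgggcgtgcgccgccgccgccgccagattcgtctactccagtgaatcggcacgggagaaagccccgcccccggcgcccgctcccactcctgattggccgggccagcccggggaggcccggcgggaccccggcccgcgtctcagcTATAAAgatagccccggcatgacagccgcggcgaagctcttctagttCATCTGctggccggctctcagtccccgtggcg

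The letters GGACAGC, the core of the right side of an RE1 element, lay 170 bases before a REST start site, in the second of its 2 windows, and 148 bases before that of RCOR1 on the opposite strand. On either strand they occur in 6.03% of all 35116 windows. CAGCACC, the core of its left side, lay 75 bases before the start site of RCOR3 in 1 of its 2 windows, which 7.75% of all windows hold. No member window held both, and 8 of the 11 held neither. The TATAAA of INSM2 stood 29 bases before its start site (11.5% of all windows), and its CATCTG, an E-box of the kind that neurogenic bHLH factors bind, 19 bases into the transcript (14.7%). Neither CAGCTG nor CACGTG, 2 other E-boxes, was found in a member window, whereas GGGCGG, the GC box, was in all 11 (45.0% of all windows). The motifs were searched on both strands and none of the marked letters overlap. Member windows had 59.7% to 79.3% G and C and 20 to 46 CpG dinucleotides, beside medians of 58.7% and 14 over all windows. These matches describe letters in the windows and not binding.

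TSPAN8, the silenced gene, had log2 values of 6.25 and 6.35 in knockdown and 7.52 and 7.62 in control cells. It fell by 1.27 ± 0.062 (SE) on the log2 scale to 41.5% of the control signal (limma, adjusted p = 0.0026). It was the only probe set of 54613 to pass (0.00183%). Pearson's r between arrays lay between 0.997 and 0.998 across probe sets, which are not independent. Of the noradrenergic neuroblast markers, 10 of 11 measured lay above the median of every array. The exception was TH, the tyrosine hydroxylase gene, at percentiles 16.2 to 26.2. Of the mesenchymal and fibroblast markers, 9 of 12 lay above that median. LUM, COL1A1, DCN, PDGFRA, VIM and FN1 were above the 85th percentile on every array. The exceptions were CD44 (percentiles 45.3 to 56.4), COL1A2 (38.8 to 50.7) and PRRX1 (27.9 to 35.95). Of Schwann cell and melanocyte markers, 4 of 7 lay above the median of every array. Among them were MITF (percentiles 72.7 to 74.9) and PMEL (52.5 to 54.6), whereas TYR and MLANA lay between percentiles 32.6 and 40.3. In RNA from whole cultures, fewer cells of a type and less RNA per cell cannot be told apart.

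**Figure D1:**
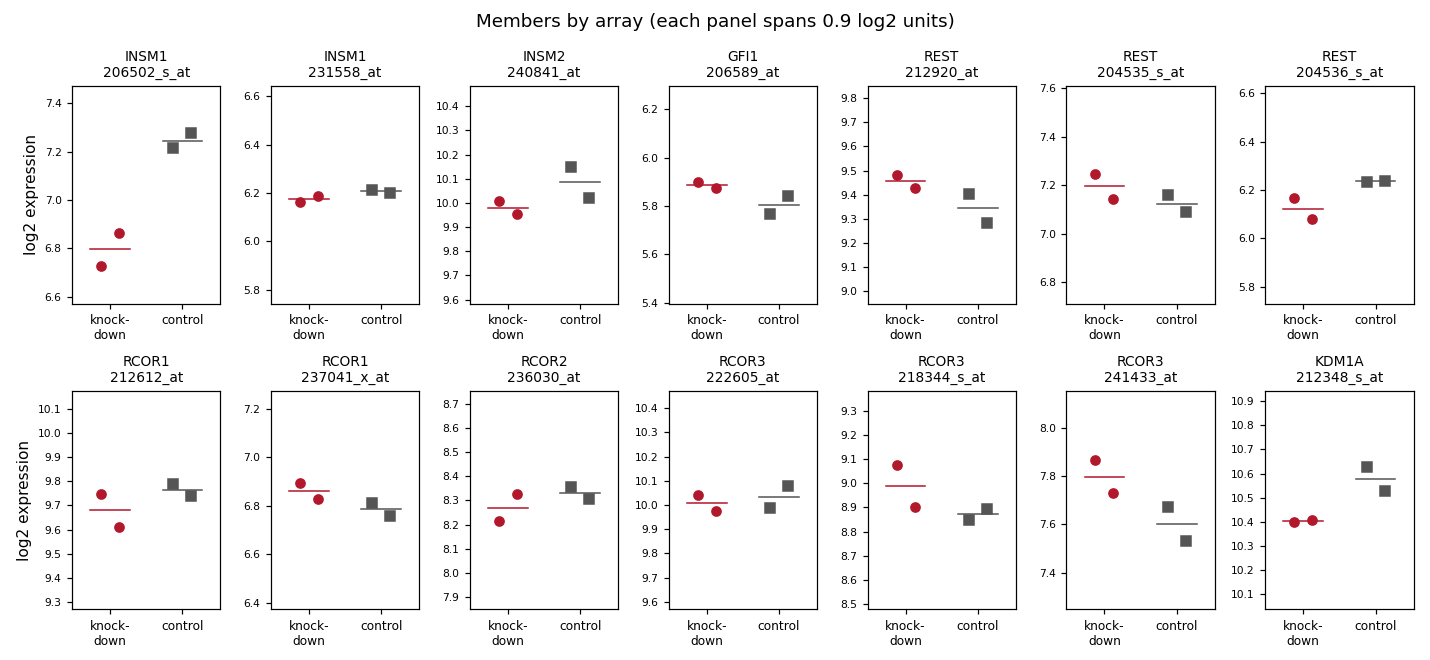
Log2 expression of the 14 member probe sets on each array, knockdown (circles) left of control (squares), with lines at the group means. Each panel spans 0.9 log2 units around its own mean; the INSM1 probe set 206502_s_at, at 6.73 and 6.87 against 7.21 and 7.28, shows the widest step.

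Of the 14 member probe sets, 8 were below and 6 above control, with a median difference of -0.028 (log2), against a median of 0.00 over all probe sets. The groups' arrays did not overlap at 10 of the 14, 5 lower and 5 higher, where 37.5% of all probe sets did not overlap (19.8% lower, 17.7% higher). No member passed the threshold (limma, 0 of 14, lowest adjusted p = 0.37), and 3 had an unadjusted p under 0.05, 2 below control and 1 above it, beside 7.83% of all probe sets (4.12% below and 3.72% above). These shares include the difference by which INSM1 was known and are not read further.

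INSM1 showed the widest difference of the members, at 1 of its 2 probe sets. At 206502_s_at it had log2 values of 6.73 and 6.87 in knockdown cells and 7.21 and 7.28 in control cells. The arrays did not overlap, and the gap between the groups was wider than the gap within either (0.14 in knockdown, 0.062 in control). The means were 6.80 ± 0.096 in knockdown and 7.25 ± 0.044 in control cells (SD, n = 2 each). The difference was -0.45 ± 0.063 (SE; 95% confidence interval -0.59 to -0.30), or 73.3% of the control signal. The probe set stood at percentiles 54.8 and 57.9 of its array in knockdown cells, against 65.2 and 66.2 in control cells.

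The other INSM1 probe set, 231558_at, stood at 6.16 and 6.19 in knockdown and 6.21 and 6.20 in control cells. The arrays did not overlap here either, but the difference was small, at -0.030 (95% confidence interval -0.15 to 0.088). Its signal was dim, between percentiles 29.6 and 32.6 on all 4 arrays. The differences at the INSM1 probe sets therefore shared a sign and lay 0.42 apart. The annotation ties 206502_s_at to a RefSeq mRNA record. Among the other member probe sets it does so for GFI1, REST at its dimmest (204536_s_at) and RCOR3 at 218344_s_at. The suffix s_at marks probes that can bind several transcripts, although the annotation gives INSM1 alone for 206502_s_at.

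INSM2, the paralogue of INSM1, had 1 probe set (240841_at), with values of 10.01 and 9.95 in knockdown and 10.15 and 10.02 in control cells. The arrays were lower without overlap, and the distance between the control arrays (0.13) exceeded the difference of -0.10 ± 0.062 (SE; 95% confidence interval -0.25 to 0.039). The signal lay between percentiles 92.0 and 92.9 of every array. GFI1, the SNAG-domain repressor of blood and neuroendocrine lineages, had values of 5.90 and 5.87 in knockdown and 5.77 and 5.84 in control cells. These lay at percentiles 8.50 to 14.7, among the dimmest on the arrays, with a difference of 0.080 (95% confidence interval -0.046 to 0.21). The signs of the 3 SNAG-domain members thus differed, but the intervals of INSM2 and GFI1 included 0. With GFI1 so dim, a difference in direction cannot be read from these values.

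REST itself was read by 3 probe sets that did not agree in sign. The brightest, 212920_at, was at 9.48 and 9.43 in knockdown and 9.40 and 9.28 in control cells, higher without overlap by 0.11 ± 0.060 (SE). The second, 204535_s_at, was at 7.25 and 7.14 in knockdown and 7.16 and 7.09 in control cells and overlapped (0.071). The dimmest, 204536_s_at, was at 6.17 and 6.08 in knockdown and 6.23 and 6.24 in control cells, lower without overlap at -0.11 (95% confidence interval -0.24 to 0.014). The intervals of all 3 included 0, and the outer probe sets lay 0.22 apart. At the dimmest the control arrays were at percentiles 33.9 and 34.1, so the bright and dim ends of the signal range gave opposite signs.

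The CoREST scaffold genes lay on both sides of control, with RCOR3 the furthest above it. RCOR1 had 9.75 and 9.61 in knockdown and 9.79 and 9.74 in control cells at 212612_at, an overlapping difference of -0.082, and 0.074 at 237041_x_at, where the arrays did not overlap (6.89 and 6.83 in knockdown, 6.81 and 6.76 in control). RCOR2, a CoREST of stem and progenitor cells in mouse, had 8.22 and 8.32 in knockdown and 8.36 and 8.31 in control cells, which overlapped, with a difference of -0.060 (95% confidence interval -0.20 to 0.076). RCOR3 had 3 probe sets. The brightest, 222605_at, overlapped at 10.04 and 9.97 in knockdown and 9.99 and 10.08 in control cells (-0.025). At 218344_s_at the values were 9.07 and 8.90 in knockdown and 8.85 and 8.895 in control cells, higher without overlap by 0.12, with the upper knockdown array well apart from the other 3. At 241433_at they were 7.87 and 7.73 in knockdown and 7.67 and 7.53 in control cells, the largest positive difference of any member, at 0.20 ± 0.071 (SE; 95% confidence interval 0.031 to 0.36). With 1 array left out 241433_at ran from 0.125 (without control replicate 2) to 0.27, and 218344_s_at from 0.031 (without knockdown replicate 1) to 0.20. The probe sets of RCOR3 thus spread over 0.22.

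KDM1A, the demethylase through which CoREST and the SNAG repressors act, had 1 probe set (212348_s_at), bright at percentiles 94.1 to 95.1. It had values of 10.40 and 10.41 in knockdown and 10.63 and 10.53 in control cells. The knockdown arrays nearly coincided and both lay below the control arrays. The difference was -0.17 ± 0.056 (SE; 95% confidence interval -0.30 to -0.044), or 88.6% of the control signal, and it was wider than the gap between the control arrays (0.099). No other probe set was there to set beside it.

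**Figure D2:**
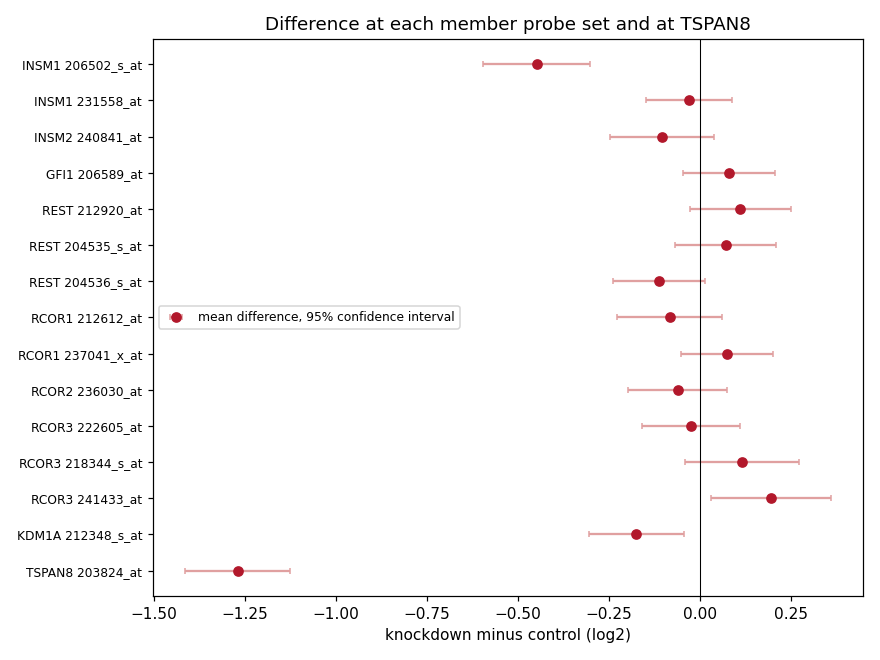
Knockdown minus control (log2) with limma's 95% confidence interval for the 14 member probe sets and for TSPAN8, which is at -1.27. Among the members, the INSM1 probe set 206502_s_at (-0.45), KDM1A (-0.17) and 1 RCOR3 probe set (0.20) have intervals that leave out 0. The intervals are not adjusted for the number of probe sets, and no member passed the adjusted threshold. INSM1 was chosen on its difference at 206502_s_at, so its interval is no support.

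Probe sets of a gene often disagreed in sign, in the network and over all genes. Of the 4 members with more than 1 probe set, INSM1 kept a sign over both, while REST, RCOR1 and RCOR3 each had differences of opposite sign. Over all 10523 genes with several probe sets the signs agreed in 38.4%, in 54.5% of those with 2 and in 33.4% of those with 3. The 4 members are too few to set against these shares, and the sign of INSM1 at 206502_s_at was known beforehand. The 8 representative probe sets (the brightest of each gene) had a median difference of -0.071, against -0.0094 over all genes, of which 55.6% were below control. The 8 include INSM1 at 206502_s_at, on which the set was chosen, so this median is not read further. With each array left out in turn, INSM1 at 206502_s_at ran from -0.52 to -0.38 and KDM1A from -0.22 to -0.12. Several smaller differences moved by more than 1.5 times. INSM2 ran from -0.17 to -0.039, RCOR1 at 212612_at from -0.15 to -0.015, RCOR2 from -0.11 to -0.0062 and REST at 212920_at from 0.053 to 0.17. RCOR3 at 222605_at turned its sign, at 0.0082 without knockdown replicate 2 and 0.022 without control replicate 2. Where the groups do not overlap, leaving out an array cannot turn the sign, so a kept sign there is no measure of stability.

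**Figure D3:**
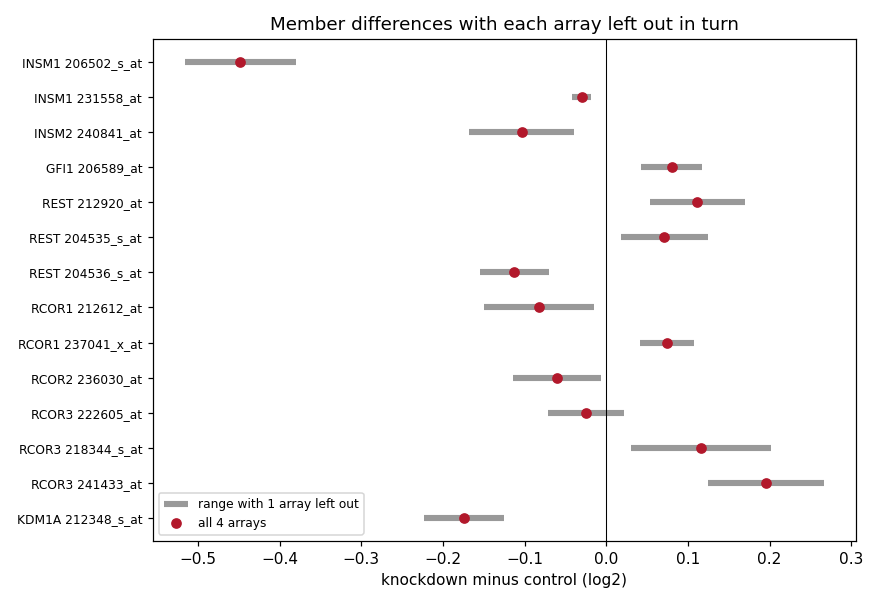
Difference at each member probe set with all 4 arrays (points) and its range with 1 array left out at a time (bars), in log2. The bar of INSM1 at 206502_s_at runs from -0.52 to -0.38 and the bar of RCOR3 at 222605_at crosses 0.

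The partners of REST and CoREST lay mostly just below control, beside 55.6% of all genes. Of 24 measured of 26 listed, among them SIN3 and deacetylase subunits, H3K9 methyltransferases and phosphatases, 19 were below and 5 above control, with 0 past the threshold in either direction (limma), 0.00506% of all genes passing. The unadjusted p was under 0.05 for 1, against 7.96% of all genes. The list median was -0.037, against -0.0094 over all genes, and moved to -0.016 after a second quantile normalization of the arrays. The genes of the list ran from -0.14 to 0.057. Every one of the 24 lay above the median of every array, whereas the shares over all genes include dim genes. SMARCA4, the chromatin remodelling ATPase BRG1 that stabilises REST on chromatin, had 11.28 and 11.33 in knockdown and 11.48 and 11.40 in control cells (-0.14 ± 0.056, SE). Of its 9 probe sets, which read 1 gene and are not independent, 8 were below control, 7 of them without overlap. The other was higher without overlap, and the differences ran from -0.27 to 0.080. Over all probe sets 19.8% were lower and 17.7% higher without overlap. BTRC, the ubiquitin ligase subunit that marks REST for degradation, was at -0.12 with 4 of 5 probe sets below control. The methyltransferase EHMT2 (G9a) was at -0.11, with 1 of 3 probe sets above control.

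Genes known to carry RE1 elements lay on both sides of control. Of 26 measured of 27 listed, 14 were below and 12 above control, with 0 past the threshold. An unadjusted p under 0.05 was reached by 6 below and 0 above control, where 5.57% and 2.39% of all genes were so. The list median was -0.0070. The 3 genes with the smallest p were CHGA, L1CAM and CHGB. CHGA and CHGB encode granins of secretory granules. VGF, a granule protein gene of the same list chosen after its value was seen, was above control without overlap at 0.070. CHGA had 10.60 and 10.74 in knockdown and 10.92 and 10.99 in control cells (-0.29 ± 0.063, SE). CHGB had 10.995 and 11.14 in knockdown and 11.21 and 11.32 in control cells (-0.20 ± 0.068, SE). Both were lower without overlap, at 1 probe set each. The adhesion molecule L1CAM was at -0.20 but at 0.025 at its other probe set. The summed log2 level of the noradrenergic markers, which include CHGA and CHGB, was 116.0 and 116.1 in knockdown and 116.9 and 116.6 in control cells. Among its 11 genes DBH (-0.35), CHGA and CHGB lay furthest below control, while NEFL (0.20) and the dim TH (0.115) lay above it. DBH had 11.66 and 12.02 in knockdown and 12.19 and 12.18 in control cells. The gap between its knockdown arrays (0.36) exceeded its difference. The part of these markers in the values of INSM1 was not tested.

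Of the neuroendocrine and bHLH factors, 18 of 19 listed were measured, with 12 below and 6 above control, 0 past the threshold and a median of -0.017. The unadjusted p was under 0.05 for 2 genes below and 1 above control, where 5.57% and 2.39% of all genes were so. MYT1, a zinc finger factor of neuronal progenitors, had 6.91 and 6.91 in knockdown and 7.22 and 7.16 in control cells (-0.28 ± 0.053, SE), with another of its 3 probe sets at 0.12. NEUROG2, a proneural bHLH factor, had 6.35 and 6.47 in knockdown and 6.60 and 6.72 in control cells (-0.26 ± 0.066, SE). Its 1 probe set stood at percentiles 39.8 and 44.3 in knockdown and 50.7 and 54.8 in control cells. PAX4, a factor of pancreatic endocrine cells, was at 0.15, and at 0.039 at its other probe set. Both were dim, at percentiles 33.5 to 43.9 and 0.37 to 1.66 of the arrays. Only 8 of the 18 genes lay above the median of every array.

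Of the other SNAG-domain factors, 7 of 8 listed were measured, 4 below and 3 above control, with 0 past the threshold, 0 at an unadjusted p under 0.05 (limma) and a median of -0.0027. SNAI2, a driver of mesenchymal transition, had 8.11 and 7.55 in knockdown and 7.46 and 7.51 in control cells. Knockdown replicate 1 stood apart from the other 3 arrays. The difference of 0.34 ± 0.15 (SE) was 0.065 without that array. On the same array the summed log2 level of the 12 mesenchymal and fibroblast markers was highest, at 111.4 against 108.5 on the other knockdown array and 108.7 and 107.9 on the control arrays. With 8 of these 12 markers above control, their part in the value of SNAI2 was not tested. SNAI1 was at 0.074 and SCRT1 at -0.012 (-0.096 at its other probe set).

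**Figure D4:**
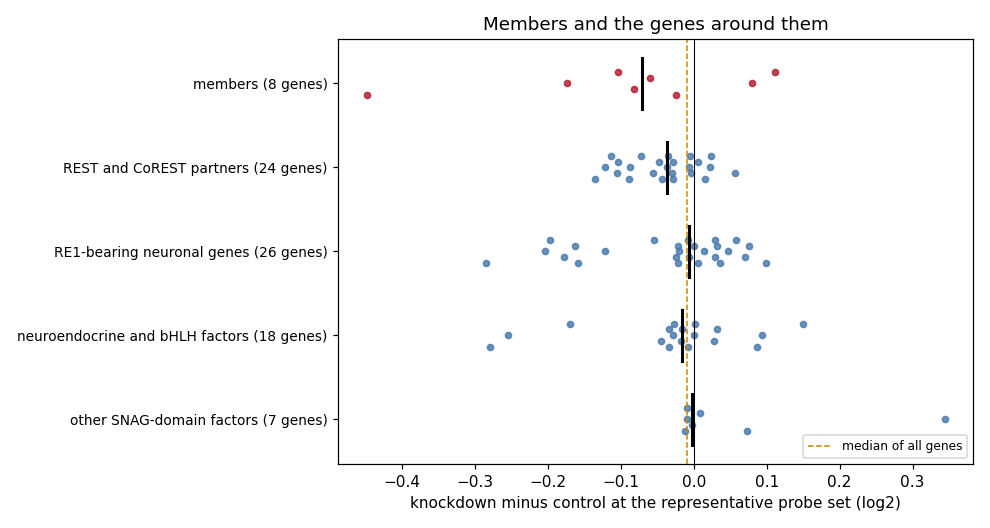
Knockdown minus control (log2) at the representative probe set of each gene, for the 8 measured members and the 4 lists, with black bars at the medians and a dashed line at the median of all genes (-0.0094). All 24 REST and CoREST partners lie between -0.14 and 0.057, and SNAI2 stands apart at 0.34.

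The genes whose pattern over the 4 arrays lay nearest to INSM1 at 206502_s_at were B3GALT2, CD46, PHLDA1, USP18 and DACH1. Likeness was the Euclidean distance between log2 values centred on each probe set's mean; it ran from 0.068 to 0.086 for these genes, against a median of 0.46 over 19767 genes. They were the only 5 within 0.1, so their place below control by a like difference is set by this choice and is no finding. B3GALT2, a galactosyltransferase, had 5.71 and 5.87 in knockdown and 6.13 and 6.25 in control cells. Its signal was dim, at percentiles 5.53 and 12.99 in knockdown and 27.8 and 34.67 in control cells. CD46, a complement regulator, had 9.83 and 9.88 in knockdown and 10.24 and 10.37 in control cells. PHLDA1, a pleckstrin homology-like protein, had 9.79 and 9.99 in knockdown and 10.26 and 10.30 in control cells. Their differences ran from -0.45 to -0.39. USP18, which restrains interferon signalling, was at -0.39, and DACH1, a transcriptional corepressor, at -0.40, below control at all 3 of its probe sets. PHLDA1 was below control at all 6 of its probe sets, whereas 1 of the 3 of CD46 was above. None of the 5 passed the threshold over all probe sets (limma, lowest adjusted p = 0.37).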

How the data were processed

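The deposited values are log2 expression, 1 per probe set and array, made by the authors with RMA under R 3.0.1, per the submitters' processing notes, which give no settings. The 62 array controls were left out. Probe sets were named through the platform annotation: 41091 carry 1 gene, 1801 several (left unnamed) and 11721 none. The 4 arrays were fitted with limma 3.58.1 (R 4.3.3; lmFit, then eBayes; two-sided), group being the only term, and p-values were adjusted over 54613 probe sets by Benjamini-Hochberg, with 0.05 as threshold. The brightest probe set over all arrays represented a gene. Members and lists were chosen with earlier results of these data known. Genes named by rule were all members, TSPAN8, the 3 genes of each list with the smallest p and the 5 nearest to INSM1. VGF and the other cell type markers given by name fell outside this rule. Percentiles rank a probe set on its own array and do not order genes. No detection call, scanner file or scan date was used here, so neither background nor batch was examined. The number of arrays limits the precision. RMA pulls arrays to a common distribution and compresses dim signals. The deposited arrays still differed slightly, with a median of 6.61 on knockdown replicate 2 against 6.58 on the others. Sorted values deviated from their mean by up to 0.082. RCOR3 at 222605_at went from -0.025 to -0.0003 after a second quantile normalization. Figures were drawn with matplotlib 3.10.9 (Python 3.11.15).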

Additional observations from a re-analysis of the deposited data

How the results depend on the processing

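No member call was made with all 4 arrays. The count of probe sets past the threshold was 1, against 0 with the replicate block, 6 when a log2 change of 0.58 or more and a raw p under 0.01 were asked for, and 1 to 1026 with an array left out; the cause was not tested. With the replicate block TSPAN8 stood at -1.27 with an adjusted p of 0.16 (limma, fewer residual degrees of freedom), and it kept its call under every other alternative run, from -1.32 to -1.22 with an array left out. In this balanced layout the block leaves every difference as it is. Replicate 1 minus 2 correlated at 0.051 between the groups across probe sets, and nothing in the labels pairs the numbers. Member probe sets past the threshold numbered 0 to 1 with an array left out. The 1 was INSM1 at 206502_s_at without either knockdown array, in fits where 25 and 1026 probe sets passed and the spread of the lone knockdown array is borrowed from the controls; since INSM1 was chosen on this difference, it is no support. Without probe sets ending in x_at or s_at, 5 of the 8 remaining member probe sets were below control, and INSM1 at 206502_s_at and KDM1A had no value. Among probe sets above the median signal, 11 member probe sets remained. The SNAG list median was 0.17 among probe sets above the median signal, where 2 of its 7 genes were left, and -0.017 after median centring. The RE1 list median was 0.0018 without control replicate 2, and the partners' median ran from -0.067 to -0.016 over the alternatives.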
